A study of Salmo salar with 37 samples.

Results

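The genes described here are solute carriers, ion channels, ion pumps and lipid handling genes of the Atlantic salmon (Salmo salar) testis. They are 63 of the 43689 probes of a salmon oligonucleotide array, and all 63 were among the 40684 probes tested. A probe was a member if its description in the study's lists of modulated probes held one of the words solute carrier, channel, ATPase, apolipoprotein, fatty acid, lipase, lipid or sterol. Descriptions with steroid, transposase or dynein were left out. Testis RNA of 37 males was measured, 1 male per array: 21 males fed a restricted ration (RR) and 16 fed a normal ration (NR). By the methods, NR fish could eat freely each day, whereas RR fish got that ration on Mondays, Wednesdays and Fridays only. The fish came from 1 sea cage and were divided at random between 2 others, 1 per ration, so that cage and ration cannot be told apart. Testes with germ cells beyond type A spermatogonia had been left out by the study. Some testes were immature and others had started to mature, but the sample labels used here do not state this status or the sampling date. The names of the deposited scanner files carry tokens that may stand for both, which were not used, and the males were grouped by ration only. The ration was taken from the sample titles, since another label reads normal for every male.

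The study listed 47 of the members for a contrast of maturing with immature males, and 21 for a contrast of RR with NR among maturing males, with 5 members in both lists. The study also listed probes for all RR against all NR males, the comparison made below, and for RR against NR among immature males, and 0 members were in either list, so that SLCO2B1 was in neither. The comparison below uses the same fish, so the members are no independent sample of the array. By role, 40 members were sorted as 5 transporters, 6 channels, 7 ion pumps, 4 genes of fatty acid and sterol synthesis, 7 of lipid binding and transfer, and 11 lipases and phosphohydrolases. The other 23 members matched the rule by a word of their name and were given no transport or lipid handling role. They hold ATPases of other processes, a peroxidase that acts on phospholipid hydroperoxides and the lipid-binding subunit of ATP synthase. Of the 23, 12 are non-ATPase subunits of the 26S proteasome, which break no lipid and carry no solute. The files give probe and cluster numbers and the study's lists give descriptions, so a member is a probe with that description. No match of these identifiers to RefSeq genes was available.

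Solute carriers and channels move ions and organic molecules across membranes, and ATPase pumps set up the ion gradients that many of them use. In the testis, Sertoli cells enclose the germ cells and pass nutrients to them. Lipids serve as fuel, as membrane material and, as cholesterol, as the precursor of androgens. Lipases free fatty acids from circulating or stored lipid, fatty acid-binding proteins carry them within the cell, and sterol regulatory element-binding proteins switch on the genes of lipid synthesis.

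All values below are log2 quantile-normalized intensities, so that a difference of 1 is a doubling. A probe was called changed at a Benjamini-Hochberg adjusted p below 0.01 together with a fold above 1.5, in a limma fit over all tested probes. The median processed intensity per array was between 237 and 860 in RR males and between 229 and 470 in NR males. Per array, 34084 to 43287 probes were well above background. The array of RR male 16 had both the 860 and the 43287. Whether this bears on the low values of that male given below was not tested. Of the members, 58 were well above background on all 37 arrays and 5 on fewer, and no spot of a member was flagged as an outlier. The arrays were scanned on 2 days, the first holding 6 RR and 11 NR males and the second 15 RR and 5 NR males. As testis markers, 2 probes for 3 beta-hydroxysteroid dehydrogenase, a steroid-making enzyme, were well above background on every array. An insulin-like growth factor probe was well above background on 18 RR and 13 NR arrays. Most probes of the array passed this mark, so it does not test testis identity.

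Males 17 to 21 of the RR group stood apart on the members. Each of them was among the 5 highest of the 37 males for 35 to 41 of the 63 probes. The next were NR males 16, 13 and 15, which were among the 5 highest for 22, 14 and 14 probes, and no other male reached more than 6. RR males 17 to 21 were exactly the 5 highest RR males for 35 members and exactly the 5 lowest for 4. For 21 members all 5 lay above every NR male. The share of all tested probes that did so was not counted. Members were listed from contrasts of these same males, so these counts only describe the list. At the other end, RR males 16, 4 and 11 were among the 5 lowest for 33, 29 and 23 members, and NR male 7 for 22. Results are therefore given with all males and, where they turn on it, without RR males 17 to 21 or without those 5 and NR males 13, 15 and 16. Both settings were chosen with the values of these very probes in view, so leaving out males that were high on them lowers the RR mean by construction for most members, and these values are a description with no test. A maturation score was the mean log2 deviation from the mean of all males over 1099 other probes, with no member among them. The study listed these as higher in its contrast of maturing with immature males. The score was 0.66 to 1.06 in RR males 17 to 21 and 0.58, 0.33 and 0.36 in NR males 16, 13 and 15. It was -0.68 to 0.0004 in the other RR males and -0.35 to 0.21 in the other NR males. The paper mentions 5 maturing RR males, but the sample labels do not say which males these were. It also reports that many genes of this contrast differed between rations among maturing males, most of them higher in RR. The score may thus carry ration itself, and fits with it are no independent test.

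**Figure D1:**
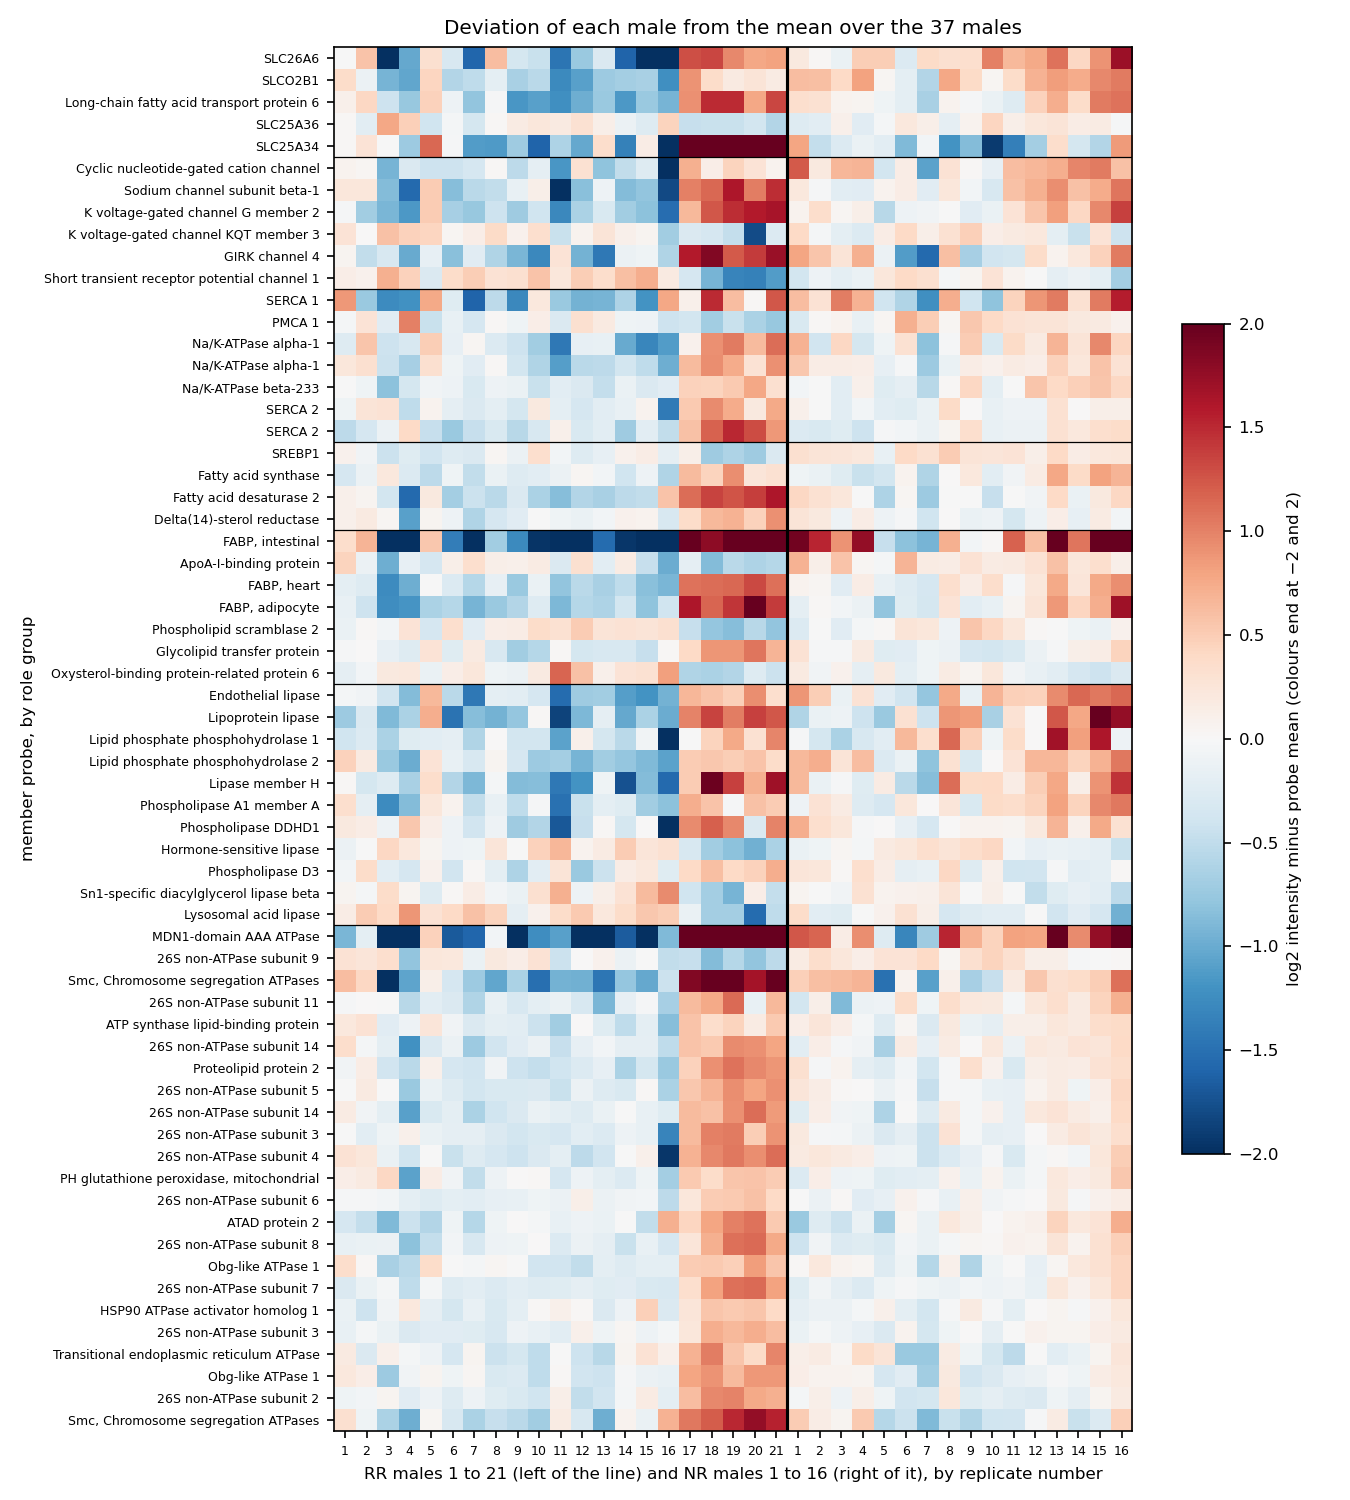
Heat map of the 63 member probes (vertical axis, by role group between the thin lines) in RR males 1 to 21 and NR males 1 to 16 (horizontal axis, either side of the thick line), coloured by log2 intensity minus the probe's mean over the 37 males. RR males 17 to 21 are red for most probes and blue for a few, and RR males 4, 11 and 16 and NR male 7 are blue for many.

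Among all members, 1 probe fell in RR males and none rose. It was the probe for solute carrier organic anion transporter family member 2B1 (SLCO2B1). Over all tested probes, 0.167% were called lower and 0.0885% higher in RR males. At an unadjusted p below 0.05, 14 members were lower in RR males and 0 were higher, which is 22.2% of the members lower, against 10.1% of all tested probes lower and 6.29% higher. The median difference, RR minus NR, was -0.10 over the members and -0.02 over all tested probes. Among the 40 members with a transport or lipid role, 12 were lower at this p and the median was -0.28. The 23 matched by name only had 2 lower and a median of 0.01. This split by role was made with earlier results known. These shares describe the list, since the members had been picked from contrasts of the same males.

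**Figure D2:**
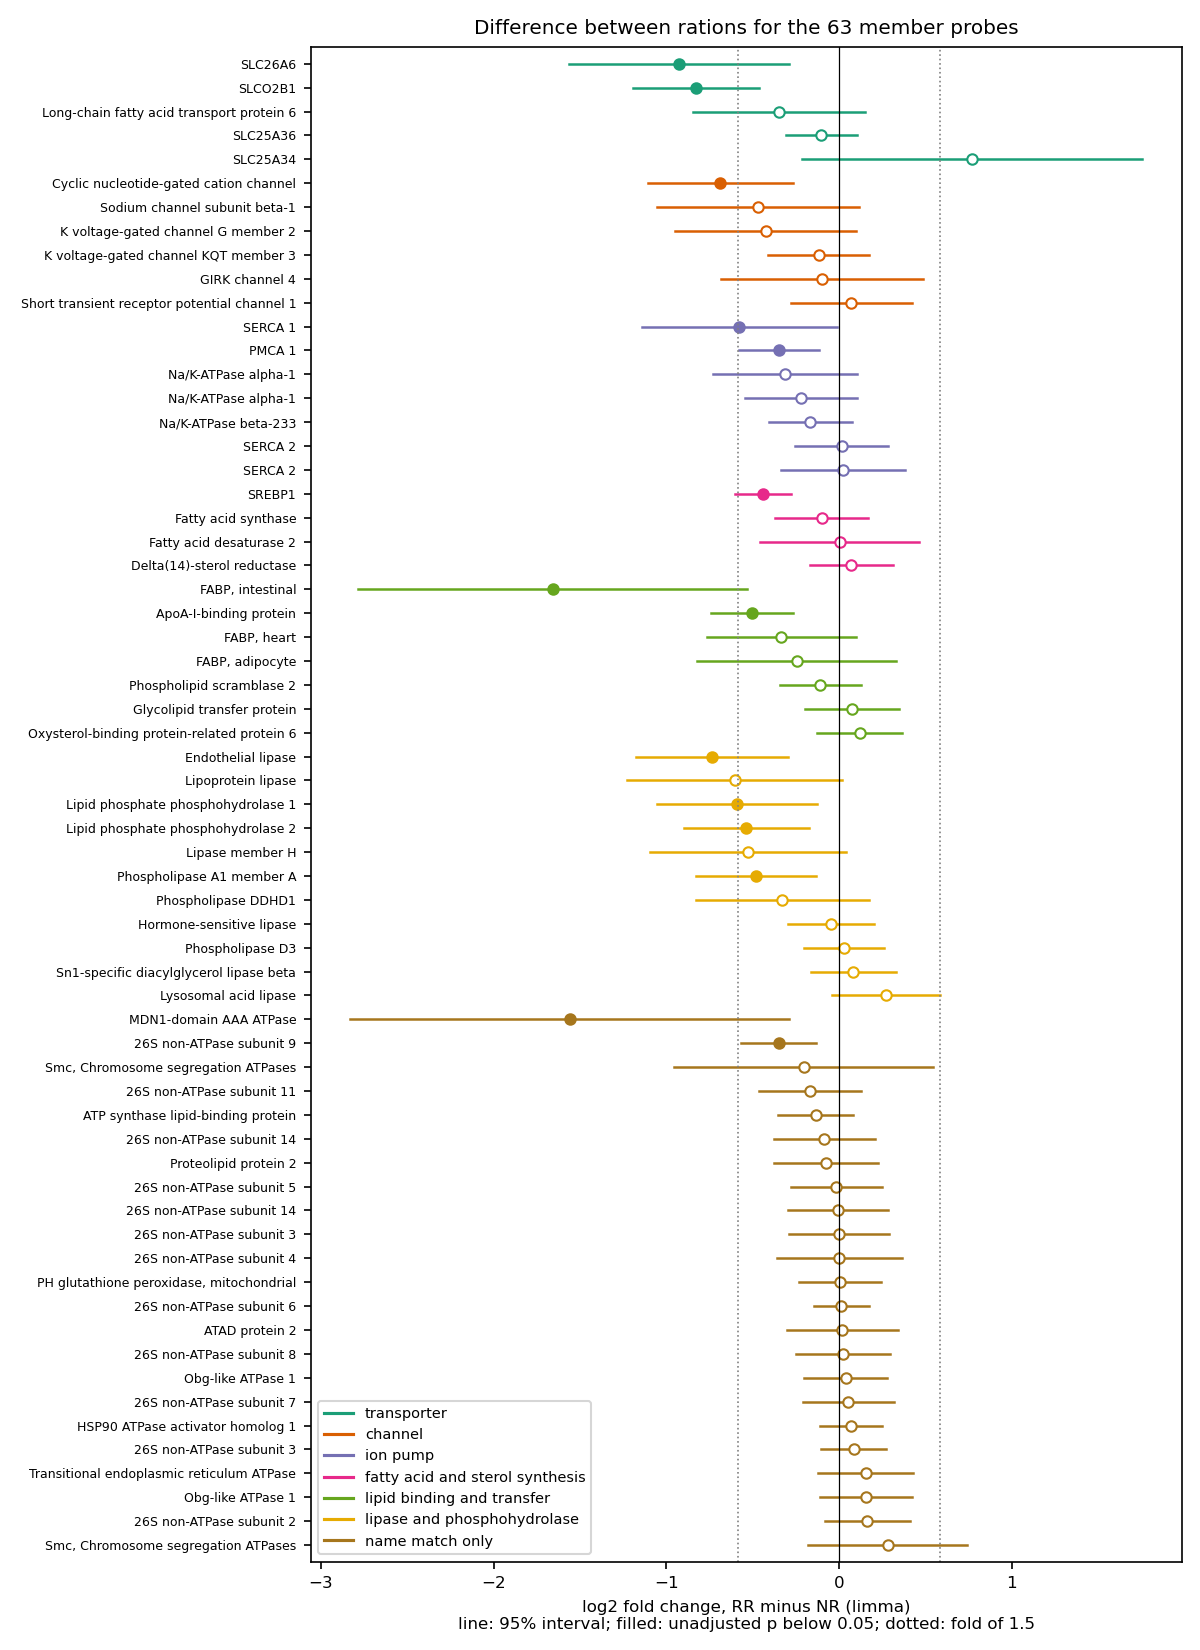
Log2 fold change, RR minus NR, of the 63 member probes (points, filled where the unadjusted p was below 0.05) with 95% intervals (lines), by role group (colours); dotted lines mark a fold of 1.5. All 14 filled points lie left of 0.

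The transporters turned on SLCO2B1, which in humans takes up organic anions such as steroid sulfates, bile salts and many drugs. Its probe (CUST_8966_PI417904088) had a lowest value of 9.66, a median of 10.40 and a highest of 11.83 in RR males, against 10.35, 11.54 and 11.97 in NR males. The ranges overlapped, but 20 RR males had less than the NR median and 10 had less than the lowest NR male. It averaged 10.57 ± 0.62 in RR males (SD, n = 21) and 11.40 ± 0.45 in NR males (SD, n = 16). The difference was -0.83 ± 0.18 (SE), a 1.78-fold lower level, with a limma adjusted p of 0.00967. This lies just inside the threshold of 0.01, and leaving out any of 27 single males moved it above, the adjusted p running between 0.00351 and 0.0199. The size held on each scan day, at -0.88 on day 1 and -0.83 on day 2. With scan day as a block it was -0.85 with an adjusted p of 0.0334, so that the call, not the size, depended on this choice. With that block 0 members were called, and 0.0221% of all tested probes.

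The SLCO2B1 difference was -1.06 without RR males 17 to 21 and -0.95 without these and NR males 13, 15 and 16. With the maturation score as a covariate it was -0.76 (adjusted p = 8e-05). RR males 17 to 21 had 11.83, 11.30, 11.12, 11.19 and 11.10, of which only male 17 exceeded the NR median. RR males 5 and 1, with 11.36 and 11.30, ranked between RR male 17 and RR males 18 to 21.

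The solute carrier SLC26A6, an exchanger of chloride for bicarbonate and oxalate in mammals, had the largest difference of the transporters but was more variable. Its lowest, median and highest values were 6.21, 8.50 and 10.16 in RR males, against 8.55, 9.28 and 10.53 in NR males. The rations overlapped, yet 12 of the 21 RR males lay below the lowest NR male. The difference was -0.93 ± 0.32 (SE), with an unadjusted p of 0.00568 and no call. RR males 17 to 21 were the 5 highest of the RR group, and without them the difference was -1.37.

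The highest positive value of all members belonged to solute carrier family 25 member 34 (SLC25A34), a mitochondrial carrier whose substrate is not well known. It exceeded background clearly on 17 RR and 13 NR arrays. Its values were 2.10, 5.09 and 9.30 (lowest, median, highest) in RR males, against 3.19, 4.68 and 5.94 in NR males. The difference was 0.77 ± 0.49 (SE) with an unadjusted p of 0.122. RR males 17 to 21 had 7.70 to 9.30, above every NR male, while RR male 16 was lowest of all. Without RR males 17 to 21 the sign turned, at -0.15. The other transporters did not pass the test. Long-chain fatty acid transport protein 6, which brings fatty acids into cells, was at -0.35, and solute carrier family 25 member 36, a mitochondrial carrier of pyrimidine nucleotides, at -0.10.

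**Figure D3:**
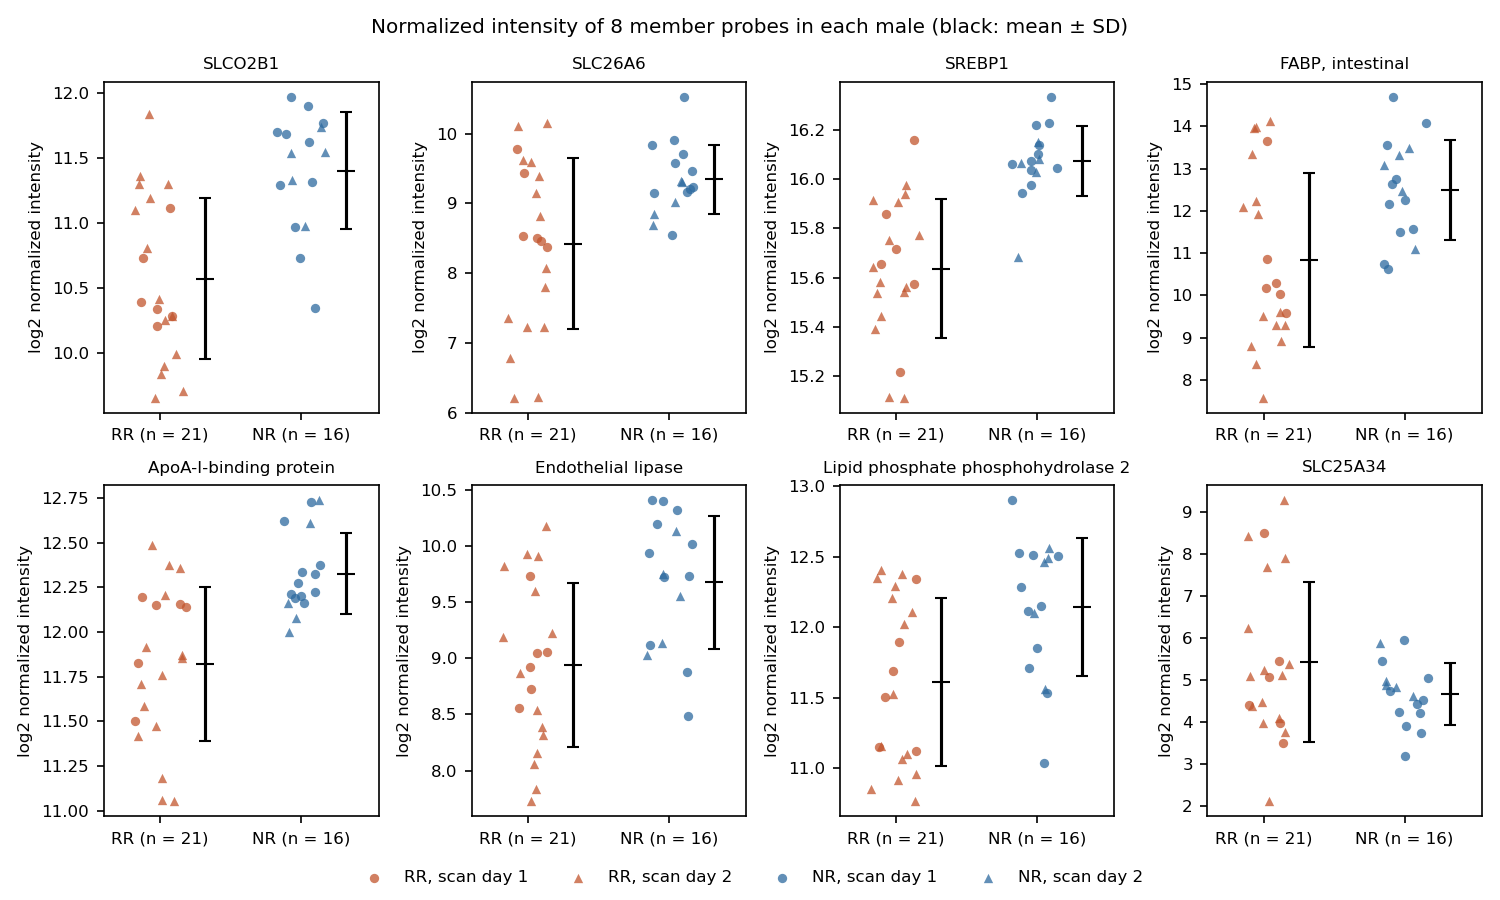
Log2 normalized intensity (vertical axes) of 8 member probes in each male, RR left and NR right in each panel, with circles for scan day 1, triangles for scan day 2 and black bars for mean ± SD. SLCO2B1 and SREBP1 each have 20 RR points under the NR median, whereas SLC25A34 has a separate upper group of RR males.

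Of the 6 channel probes, 1 (16.7%) had an unadjusted p below 0.05, where 10.1% of all tested probes were lower, and none was called. The cyclic nucleotide-gated cation channel, which opens when cyclic nucleotides bind to it, ran from 6.91 over a median of 9.15 up to 10.12 in RR males, against 8.33, 10.01 and 10.63 in NR males. The NR median exceeded 20 of the 21 RR values. Its difference was -0.69 ± 0.21 (SE), with an unadjusted p of 0.00209 and an adjusted p of 0.0787. On the scan days it was -0.59 and -0.80.

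The other channels did not separate the rations. Sodium channel subunit beta-1, an accessory subunit that shapes the gating of sodium channels, differed by -0.47 ± 0.29 (SE). Potassium voltage-gated channel subfamily G member 2, a subunit that modifies other potassium channels, differed by -0.42 ± 0.26 (SE). In both, some RR males lay below every NR male, 10 and 11 of them, and 3 lay above every NR male. These 3 were among RR males 17 to 21. Without those 5 males the potassium channel subunit was at -0.90. Short transient receptor potential channel 1, a cation channel, ran the other way: RR males 17 to 21 were the 5 lowest RR males and the difference over all males was 0.07.

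The pumps were lower or near equal in RR males, and none was called. Sarcoplasmic/endoplasmic reticulum calcium ATPase 1 (SERCA1), which returns calcium to internal stores and is known from fast muscle, had 5.40, 6.48 and 8.49 (lowest, median, highest) in RR males, against 5.78, 7.54 and 8.58 in NR males. Its difference was -0.58 ± 0.28 (SE), with an unadjusted p of 0.0463. Plasma membrane calcium-transporting ATPase 1, which expels calcium from cells, had 10.99, 11.61 and 12.76 in RR males, against 11.45, 11.95 and 12.47 in NR males. Here the NR median exceeded 18 RR values, and RR male 4 was the highest of all 37. The difference was -0.35 ± 0.11 (SE), with an unadjusted p of 0.00454.

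Pumps with 2 probes gave like values. The probes for the alpha-1 subunit of sodium/potassium-transporting ATPase, the catalytic part of the pump that sets the sodium gradient, differed by -0.31 ± 0.21 and -0.22 ± 0.16 (SE). Those for SERCA2, the widely expressed form, differed by 0.02 ± 0.13 and 0.02 ± 0.18 (SE). The SERCA2 values took the opposite sign without RR males 17 to 21, at -0.18 and -0.31.

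Of the genes of lipid synthesis, sterol regulatory element-binding protein 1 (SREBP1), the transcription factor that switches on fatty acid synthesis genes, separated the rations best of all members by adjusted p. It had 15.11, 15.64 and 16.16 (lowest, median, highest) in RR males, against 15.69, 16.07 and 16.34 in NR males. The NR median exceeded 20 RR values, and the lowest NR value exceeded 12. It averaged 15.64 ± 0.28 in RR males (SD, n = 21) and 16.07 ± 0.14 in NR males (SD, n = 16). The difference was -0.44 ± 0.08 (SE) with an adjusted p of 0.00228, but at 1.35-fold it stayed under the required fold and was not called.

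SREBP1 differed from most members in where RR males 17 to 21 lay: 15.94, 15.11, 15.21, 15.11 and 15.54, of which the second to the fourth were the lowest of all 37 males. The difference was -0.36 without them, -0.41 on scan day 1 and -0.39 on day 2. The 3 enzymes of lipid synthesis did not pass the test, and their differences from SREBP1 were not tested. Fatty acid synthase, which builds palmitate, differed by -0.10 ± 0.13 (SE). Fatty acid desaturase 2, which makes polyunsaturated fatty acids, differed by 0.0045 ± 0.23 (SE), and Delta(14)-sterol reductase, an enzyme of cholesterol synthesis, by 0.07 ± 0.12 (SE). The 95% intervals were -0.37 to 0.17, -0.46 to 0.46 and -0.17 to 0.31, of which that of desaturase 2 includes the SREBP1 value. Without RR males 17 to 21 the enzymes were at -0.27, -0.42 and -0.11.

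The lipid binding proteins held the largest difference of all members. Fatty acid-binding protein, intestinal, which carries fatty acids in the cells of the gut lining, had 7.58, 10.17 and 14.13 (lowest, median, highest) in RR males, against 10.63, 12.54 and 14.70 in NR males. While 12 of 21 RR males lay below the lowest NR male, RR males 17 to 21 had 13.34 to 14.13 and were the highest RR males. It averaged 10.84 ± 2.06 in RR males (SD, n = 21) and 12.50 ± 1.18 in NR males (SD, n = 16). The difference was -1.66 ± 0.56 (SE) with an unadjusted p of 0.00505, and it was not called. It was -1.65 on scan day 1 and -1.81 on day 2. Without RR males 17 to 21 it was -2.59 and without the 8 males -2.22. With the maturation score as a covariate it was -1.42 (adjusted p = 0.000442), which passed both thresholds.

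Apolipoprotein A-I-binding protein, which repairs damaged nicotinamide cofactors and binds the main protein of high density lipoprotein, was close to the threshold. It had 11.05, 11.86 and 12.48 in RR males, against 11.998, 12.25 and 12.74 in NR males, with 13 of 21 RR males below the lowest NR male. The difference was -0.50 ± 0.12 (SE), with an adjusted p of 0.0183 and a fold under 1.5. RR males 17 to 21 lay between 11.18 and 11.86, also below every NR male.

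The other fatty acid-binding proteins differed less. The heart form differed by -0.33 ± 0.21 (SE) and the adipocyte form by -0.24 ± 0.28 (SE). In the heart form all of RR males 17 to 21 lay above every NR male, and 10 other RR males lay below every NR male. Without RR males 17 to 21 the heart form was at -0.74 and the adipocyte form at -0.79. Phospholipid scramblase 2, which mixes lipids between membrane leaflets, was lower than in every NR male in all 5 of them, and over all males it differed by -0.11. Glycolipid transfer protein and oxysterol-binding protein-related protein 6, which move lipids between membranes, were at 0.07 and 0.12.

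Of the 11 lipases and phosphohydrolases, 4 (36.4%) had an unadjusted p below 0.05, all lower in RR males, and none was called. Of all tested probes, 10.1% were lower at this p. Their median difference was -0.48. Endothelial lipase, which cleaves phospholipids of high density lipoprotein, had 7.73, 8.92 and 10.18 (lowest, median, highest) in RR males, against 8.48, 9.74 and 10.41 in NR males. The ranges overlapped widely, although the NR median exceeded 17 RR values. The difference was -0.73 ± 0.22 (SE), with an unadjusted p of 0.0017. It was -0.74 on scan day 1 and -0.61 on day 2.

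Lipid phosphate phosphohydrolases remove phosphate from phosphatidic acid and lysophosphatidic acid. Number 1 had 4.66, 7.05 and 8.28 in RR males, against 6.66, 7.46 and 8.98 in NR males, and differed by -0.59 ± 0.23 (SE; unadjusted p = 0.0143). Number 2 had 10.76, 11.52 and 12.41 in RR males, against 11.04, 12.22 and 12.90 in NR males, and differed by -0.54 ± 0.18 (SE; unadjusted p = 0.00492). They behaved differently by scan day. Number 1 was at -0.71 on day 1 and -0.01 on day 2, and number 2 at -0.49 and -0.63.

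Phospholipase A1 member A, which releases fatty acids from phosphatidylserine, had 7.92, 9.24 and 10.15 in RR males, against 9.09, 9.68 and 10.47 in NR males. Its difference was -0.48 ± 0.17 (SE; unadjusted p = 0.00848). Lipoprotein lipase, which takes fatty acids from circulating triglycerides, differed by -0.60 ± 0.31 (SE; unadjusted p = 0.0563), but by -1.07 on scan day 1 and 0.18 on day 2. Its 2 highest males were NR 15 with 13.33 and NR 16 with 12.66, both scanned on day 1.

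The other lipases did not pass the test. Phospholipase DDHD1, which works inside cells, differed by -0.33 ± 0.25 (SE) and was at -0.61 without RR males 17 to 21. Lipase member H differed by -0.53 ± 0.28 (SE). Hormone-sensitive lipase, which mobilizes stored fat, differed by -0.05 ± 0.12 (SE). Lysosomal acid lipase, which breaks down cholesteryl esters taken up by the cell, differed by 0.28 ± 0.15 (SE; unadjusted p = 0.0826), with 11 of 21 RR males above the highest NR male. RR male 20 had its lowest value of all males, 8.02. Without RR males 17 to 21 the difference was 0.53. Phospholipase D3, an enzyme of lysosomes, and diacylglycerol lipase beta, which makes an endocannabinoid, were at 0.03 and 0.08.

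**Figure D4:**
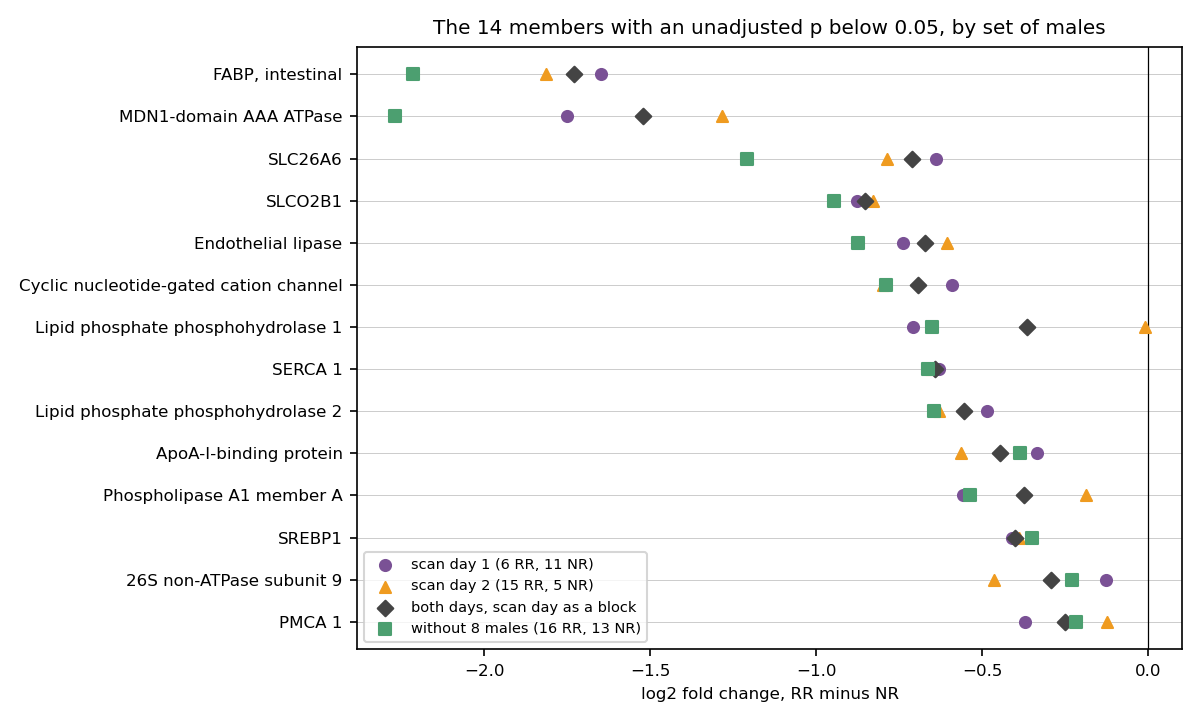
Log2 fold change, RR minus NR (horizontal axis), of the 14 members with an unadjusted p below 0.05 (vertical axis) on scan day 1, on scan day 2, with scan day as a block, and without RR males 17 to 21 and NR males 13, 15 and 16. All points lie left of 0, those of lipid phosphate phosphohydrolase 1 spreading between -0.71 and -0.01 over the scan days. The 14 members had been picked as lower over these same males, so their shared side is no test.

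The scan days held unequal shares of the rations, so each member was also compared within them. NR males 13, 15 and 16 and RR male 19 were scanned on day 1, and RR males 17, 18, 20 and 21 on day 2. Males with high maturation scores were thus spread unequally over rations and days. Differences within a day therefore mix ration with that score. On both days 30 members were lower in RR males and 8 were higher, whereas 25 had opposite signs. The same counts over all tested probes are not given. With all males, 10.1% of all tested probes were lower and 6.29% higher at an unadjusted p below 0.05. All 14 members with an unadjusted p below 0.05 were lower on both days. They had been picked as lower over these same males, so their shared sign is no test. The median difference of the members was -0.14 on day 1 and -0.01 on day 2. Medians of all tested probes by day are not given, so these counts and medians only describe the list. With scan day as a block, 12 members were lower at an unadjusted p below 0.05, against 6.29% of all tested probes. The scan days themselves, with ration in the fit, differed past both thresholds for 0 members, against 0.536% of all tested probes, and at an unadjusted p below 0.05 for 5 members (7.94%), against 20.2%.

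Among the members matched by name only, 2 (8.7%) had an unadjusted p below 0.05, both lower, against 10.1% of all tested probes lower. A probe with an MDN1 domain, an ATPase of ribosome assembly, had 4.58, 8.19 and 12.55 (lowest, median, highest) in RR males, against 7.98, 10.14 and 12.48 in NR males. Its difference was -1.56 ± 0.63 (SE; unadjusted p = 0.0176), and its SD within rations, 1.96, was the largest of the 63. Non-ATPase subunit 9 of the 26S proteasome, an assembly factor, had 11.62, 12.49 and 12.84 in RR males, against 12.47, 12.69 and 12.95 in NR males, and differed by -0.35 ± 0.11 (SE; unadjusted p = 0.00237).

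The other proteasome probes lay close to 0. The median over the 12 was 0.0027. Subunit 14 had 2 probes, at -0.08 ± 0.14 and -0.0042 ± 0.14 (SE), and subunit 3 had 2, at 0.0022 ± 0.14 and 0.09 ± 0.09 (SE). The 2 probes for Obg-like ATPase 1, a translation-associated enzyme, were at 0.04 ± 0.12 and 0.16 ± 0.13 (SE). The 2 with a chromosome segregation ATPase (Smc) domain disagreed in sign, at -0.20 ± 0.37 and 0.28 ± 0.23 (SE), with unadjusted p of 0.584 and 0.221. In 15 of the 23 probes matched by name only, all of RR males 17 to 21 lay above every NR male. The share over all tested probes was not counted here either.

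The spread between males was wide for the members. The SD within rations had a median of 0.448 over the members, against 0.375 over all tested probes, and 44 of the 63 lay above the latter. Of the members, 47 had been listed as different between maturing and immature males of this study. Whether the wide spread follows from how the list was made was not tested. With the maturation score as a covariate, 4 members were called, where 0.462% of all tested probes were. They were SLCO2B1, intestinal fatty acid-binding protein, endothelial lipase and the MDN1 probe, all lower in RR males. The score may itself carry ration, so these calls are no independent test.

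Other transporters and lipid genes that the study listed, but whose descriptions lack the words of the rule, made up 19 and 23 probes, and none was called. Of the transporters, 2 were lower (10.5%) and 2 higher at an unadjusted p below 0.05, with a median of 0.05. Over all tested probes, 10.1% were lower and 6.29% higher at this p. High affinity choline transporter 1, which brings choline into cells, differed by -1.11 ± 0.27 (SE; adjusted p = 0.0244). Aquaporin-3, a channel for water and glycerol, differed by 0.96 ± 0.24 (SE; adjusted p = 0.0312). Of the lipid genes, 3 were lower and 1 higher, with a median of 0.01. Acyl-coenzyme A thioesterase 1, which frees fatty acids from coenzyme A, differed by -1.19 ± 0.53 (SE; unadjusted p = 0.0313), and diacylglycerol O-acyltransferase 1, which completes triglyceride synthesis, by 0.34 ± 0.17 (SE; unadjusted p = 0.0488).

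Markers of blood and fat cells were measured beside the members. Their probes and those of the testis markers were taken from the study's lists of modulated probes. Those lists came from contrasts of the same males, so the counts below only describe these probes. Of 6 hemoglobin subunit probes, 4 were called lower in RR males, where 0.167% of all tested probes were. Differences of the 6 were between -1.33 and 0.05. With scan day as a block the adjusted p of these 4 was between 0.0134 and 0.0455, so that none of them was called. The log2 of the summed level of the 6 was 16.96 to 19.48 in RR males, against 18.41 to 19.49 in NR males. Of 4 adipocyte-type probes, 0 had an unadjusted p below 0.05, with differences between -0.60 and -0.05. The log2 of their summed level was 13.74 to 16.97 in RR males, against 14.01 to 16.24 in NR males. None of these markers was at 0, and 3 of the 4 adipocyte-type probes are themselves members. The 2 probes for 3 beta-hydroxysteroid dehydrogenase differed by -0.66 and -0.58 (limma unadjusted p = 0.013 and 0.00533). The insulin-like growth factor probe differed by 1.33 (unadjusted p = 0.0103). All 3 thus had an unadjusted p below 0.05, but none was called. The part of the blood and fat cell content of the samples in the member values was not tested. In whole testis, fewer cells of a type and less RNA per cell cannot be told apart.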

How the data were processed

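One-colour arrays (Cy3) of testis RNA from 37 males were scanned, and spots were read with Feature Extraction 10.7.1.1 according to the submitters' processing notes. The authors deposited linear intensity per spot, raw and background-corrected, and a table of log2 values, which equal log2 of the background-subtracted intensity without normalization between arrays (largest difference 5e-09 over 1589471 values).

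Here log2 of the processed intensity was quantile normalized in limma 3.58.1 (R 4.3.3). Of the non-control probes, 581 spots marked as outliers were treated as missing. The 40684 probes that exceeded background clearly on 16 or more arrays entered lmFit and eBayes, RR minus NR, and a call needed both p after Benjamini-Hochberg adjustment under 0.01 and a 1.5-fold difference. The fit was tried on the same arrays with ration shuffled over the males and log2 shifts added to some probes. Of shifts of 0.8, 75.6% were called, and of shifts of 2.0, 99.6%. Slide and scan day came from the file headers. The number of arrays limits the precision.

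Members, roles and lists were chosen with earlier results of these data known. Named in the text are SLCO2B1, the 3 largest differences of each role, members with an unadjusted p below 0.05, members with 2 probes, and the largest rise and fall of each other list. Members named beyond this rule were chosen after their values were seen. Each replicate is a separate male. Alternatives were other scalings, filters, tests, batch and maturation terms, thresholds, and each male left out. The 2 settings that leave out the males that stood apart were added after the data were seen.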

Additional observations from a re-analysis of the deposited data

How the results depend on the processing

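The median member difference was below 0 under all settings run, and 0 members were called higher under any. It ran from -0.28 without RR males 17 to 21 to -0.01 on scan day 2. On that day 31 members were higher and 32 lower in RR males, so that its sign there says little. Over all tested probes the median with all males was -0.02. Against 1 member called lower, 0 were when arrays were scaled to the 75th percentile, when dim probes were kept, with the methods' t-test, slide as a fixed block, scan day as a block and either scan day alone. More were called with array weights (5, where 0.423% of all tested probes were) and the maturation covariate (4, where 0.462% were). This covariate with scan day gave 2, and no threshold on the fold gave 2. The share of all tested probes is not given for these 2 settings. Without RR males 17 to 21, 13 were called (where 1.24% were), and without 8 males 5 (where 0.29% were). Those males were left out for their high values on the members, which favours lower RR values, so the last 2 counts are no test. Without single males the count was 0 to 1, and SLCO2B1 stayed between -0.90 and -0.78. It lost its call at adjusted p = 0.0115 (75th percentile), 0.0108 (no filter) and 0.0122 (methods' t-test), and at 0.0899 (slide as a fixed block). Of the other transporters and lipid genes, against 0, 1 was called with 75th percentile scaling, normexp or the covariate with scan day. With array weights, the covariate or an adjusted p of 0.05 there were 3. There were 8 without RR males 17 to 21, 2 without 8 males and 0 without single males. For 75th percentile scaling, normexp, the covariate with scan day and an adjusted p of 0.05, the share of all tested probes is not given.

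Replicate numbers are shared by the rations but pair nothing in the labels, and deviations of same-numbered males correlated above 0.1 in 6 of 16 pairs. With the replicate block, which leaves RR males 17 to 21 without a partner and so drops them from the difference, 7 members and 3 probes of the other lists were called, where 0.713% of all tested probes were, SLCO2B1 at -1.06.

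Signs turned in many small differences, and also in SLC25A34 (0.77 over all males) and lipoprotein lipase (-0.60 over all males); the cause was not tested. With the replicate block and without RR males 17 to 21, Obg-like ATPase 1 was at -0.0751 and -0.1377, 26S subunit 3 at -0.0857 and -0.2513, an Smc probe at -0.1209, SLC25A34 at -0.1477, SERCA2 at -0.312 and -0.1804, and sterol reductase at -0.1114. Without 8 males Obg-like ATPase 1 was at -0.0293 and -0.0729, 26S subunit 3 at -0.0473 and -0.1972, the Smc probe at -0.0554, SERCA2 at -0.2308 and -0.1363, and sterol reductase at -0.0835. With array weights 26S subunit 3 was at -0.0557 and -0.1037, SERCA2 at -0.2487 and -0.0132, and Obg-like ATPase 1 at -0.0045. On scan day 1 Obg-like ATPase 1 was at -0.0321, 26S subunit 3 at -0.032 and -0.0854, and SERCA2 at -0.197 and -0.0222. On scan day 2 26S subunit 14 was at 0.1913 and 0.1078, lipoprotein lipase at 0.1837, sterol reductase at -0.0316 and fatty acid synthase at 0.1846. With scan day as a block 26S subunit 14 was at 0.0318, 26S subunit 3 at -0.0033 and fatty acid synthase at 0.0053. With slide as a fixed block 26S subunit 14 was at 0.02 and fatty acid synthase at 0.0978, and with slide as a random block 26S subunit 3 was at -0.0006. The covariate put 26S subunit 14 at 0.0544, and the covariate with scan day put it at 0.0824 and 0.0329 and fatty acid synthase at 0.0436. With 75th percentile scaling 26S subunit 14 was at 0.0119, and 26S subunit 3 was at -0.0261 in the deposited log2 values and at -0.007 with normexp. Without single males, 26S subunit 14 ran between -0.0601 and 0.0499, 26S subunit 3 between -0.0497 and 0.068, Obg-like ATPase 1 between -0.0026 and 0.0716, and SERCA2 between -0.0503 and 0.0617 and between -0.0308 and 0.0876.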
